A study of Rattus norvegicus with 3 samples.

Results

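The records described here are the long non-coding RNA records of rat kidney that share a locus with at least 1 other record while no protein-coding record lies at that locus. They were chosen by the annotation alone: the biotype had to be long non-coding RNA, the locus had to be listed at least 2 times, and mitochondrial loci were left out. The rule found 1054 of the 33194 records, at 381 of the 27391 loci. Of the 3678 long non-coding records in all, 1399 others stood alone at their locus, 1221 shared a protein-coding locus and 4 fitted none of these classes. The labels name 3 rat strains used in the study of blood pressure, with 1 kidney library each: the Dahl salt-sensitive rat (Dahl S, 53 days old), the Dahl salt-resistant rat (Dahl R, 54 days old) and the spontaneously hypertensive rat (SHR, 55 days old). In every strain the animals had been weaned at 30 days and given a diet with 0.3% salt, and no other treatment is labelled. Strain, age and animals cannot be told apart, and the labels do not say how many animals a library holds. In bulk kidney RNA, fewer cells of a type and less RNA per cell cannot be told apart either.

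Long non-coding RNAs are transcripts without a long reading frame. Some are hosts from whose introns or exons small RNAs are cut: the introns of *Gas5* hold small nucleolar RNAs (snoRNAs), which guide chemical modification of ribosomal RNA, and *H19* and *Meg3*, each expressed from the maternal chromosome only, hold microRNAs. Others, such as the RNAs of telomerase and of the RNase MRP and P enzymes, are themselves parts of ribonucleoproteins.

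Of the 1054 records, 683 had identifiers beginning with FQ, 284 with XR and 45 with BC, and none matched a RefSeq transcript accession in the reference table. By symbol or synonym, 5 matched a RefSeq gene (*Gas5*, *H19*, *Rmrp*, *Terc* and *Cox6c*). The sequences shown are those of the named small RNA hosts. The promoters of *Gas5* and *Meg3* follow, from 250 bases before to 50 bases after the start of the gene (RefSeq, assembly GRCr8: chr13:75836713-75837012, + strand, and chr6:134273806-134274105, + strand). *Meg3* is no record of the files, but RefSeq places *Mir770*, whose record lies at a clustered locus, within it. Capitals mark TGACGTCA, the palindrome bound by cAMP response element proteins, and TATATA, a run of the kind found in many core promoters. These motifs were chosen after the sequences had been read, and both read the same on either strand.
Gas5: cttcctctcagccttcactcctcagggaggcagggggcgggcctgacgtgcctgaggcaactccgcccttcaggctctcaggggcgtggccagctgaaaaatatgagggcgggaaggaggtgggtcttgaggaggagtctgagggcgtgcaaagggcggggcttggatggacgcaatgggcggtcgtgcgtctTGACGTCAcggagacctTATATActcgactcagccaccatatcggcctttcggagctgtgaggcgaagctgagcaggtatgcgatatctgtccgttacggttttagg
Meg3: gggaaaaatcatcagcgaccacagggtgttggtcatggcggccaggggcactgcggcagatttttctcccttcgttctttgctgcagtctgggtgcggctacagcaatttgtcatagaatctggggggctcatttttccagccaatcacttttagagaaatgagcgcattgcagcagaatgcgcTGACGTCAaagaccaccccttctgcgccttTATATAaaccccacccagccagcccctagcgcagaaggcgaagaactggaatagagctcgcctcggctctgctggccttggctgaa
TGACGTCA begins 57 bases before the start site in *Gas5* and 66 bases before it in *Meg3*. TATATA begins 40 and 36 bases before it. Among 33469 RefSeq promoters of the same length, 1.83% hold TGACGTCA, 6.15% hold TATATA and 0.0837% (28 promoters) hold both. A match is a string of letters and no measured site.

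The hairpins of the microRNAs named at the *H19* locus and at the locus next to *Dlk1* are given with their mature products in capitals (RefSeq, GRCr8: chr1:207161752-207161835, - strand, and chr6:134298084-134298159, + strand).
miR-675 hairpin: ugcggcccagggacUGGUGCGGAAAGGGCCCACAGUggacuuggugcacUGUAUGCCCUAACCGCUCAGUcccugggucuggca
miR-770 hairpin: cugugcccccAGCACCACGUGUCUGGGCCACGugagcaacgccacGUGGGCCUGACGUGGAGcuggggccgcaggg
In the mature products below, capitals mark the seed (bases 2 to 8), the stretch that pairs with target RNAs.
miR-675-5p: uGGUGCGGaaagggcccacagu
miR-675-3p: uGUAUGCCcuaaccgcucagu
miR-770-5p: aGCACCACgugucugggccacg
miR-770-3p: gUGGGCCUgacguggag
No 2 of these seeds are the same.

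Most of the 381 loci were small. They held 1 such record (58 loci, where the other record had another biotype), 2 (206 loci), 3 to 4 (82 loci) or at least 5 (35 loci), with a largest locus of 24. The median span of a locus was 1454 bases (interquartile range 1018 to 3399). Only long non-coding records lay at 296 loci. At the other 85 there were 63 pseudogenes, 14 retrotransposed records, 10 snoRNAs, 7 microRNAs, 3 records of the class misc_RNA and 1 small nuclear RNA. Unplaced or unassigned sequence held 54 loci with 244 records. Some accessions were listed at several loci: 37 of them accounted for 198 of the 1054 records, with 22 each for XR_086361 and XR_085680. Values of such copies are uncertain, since the files do not say how reads that fit several places were shared.

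Values are FPKM, fragments scaled by transcript length and by the mapped fragments of the library, and the deposited lower and upper limits are given in parentheses. The limits describe 1 library, their confidence level is not stated in the labels or headers, and read totals are unknown. For records of at least 5 FPKM in this class a limit lay a median of 36.0%, 34.8% and 33.5% of the value away for Dahl S, Dahl R and SHR. The libraries carried the kidney markers at high levels (*Umod* at 4028, 4475 and 5783 FPKM), while *Alb*, *Gfap*, *Th* and *Myh6*, markers of other tissues, stayed under 1 FPKM. The mitochondrial share of the FPKM total was 21.9%, 24.8% and 28.1%, in the same order of strains. All 3 measured haemoglobin records (*Hbb*, *Hba2* and *Hba-a2*) were highest in Dahl S, with *Hbb* at 3089.7 for Dahl S, 1209 for Dahl R and 711 for SHR. Both brown fat genes looked up (*Ucp1* and *Cidea*) were highest in SHR, with *Ucp1* at 37.7, 26.3 and 155, and the part of blood and fat in the strain differences was not tested.

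Over the 3 libraries a mean of 0.5 FPKM was reached by 670 of the 1054 records (63.6%). The share was 57.8% for long non-coding records that stood alone, 60.2% for those at coding loci and 68.6% for protein-coding records. A value of 0 in every library was listed for 139 of the 1054 (13.2%), and 37 of these lay at loci whose sum was measured. Summed per locus, 294 of 381 loci (77.2%) reached the minimum. The class held 2.60%, 2.44% and 2.36% of the FPKM total for Dahl S, Dahl R and SHR, and much of that lay in few loci. The 10 loci of highest sum held 62.2%, 63.1% and 61.6% of it.

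The highest sum belonged to a locus of 15 records on unplaced sequence, with 7288 FPKM for Dahl S, 6164 for Dahl R and 6821 for SHR. Most of it was the record XR_086349, listed at 6412 (0–20309.5) for Dahl S, 5445 (0–19717) for Dahl R and 6014 (0–26735) for SHR, limits so wide that they reach 0 in every library. This 1 locus held 33.3%, 30.1% and 32.4% of the FPKM of the class. Next came a locus of 5 records on chromosome 1, positions 208429494 to 208430184, led by FQ224152, whose sum was 1257 FPKM for Dahl S, 1967 for Dahl R and 1525 for SHR. A neighbouring locus on the same chromosome, led by BC107436, summed to 241 FPKM for Dahl S, 341 for Dahl R and 322 for SHR. Both were lowest in Dahl S, by log2 ratios to Dahl R of -0.65 and -0.50, less than 2-fold.

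Many of the loci lay just past the end of a coding gene. Among the 327 loci with a coding record on the same sequence, 92 had one within 1000 bases, and for 73 of these (22.3% of 327) the locus lay downstream of it on the same strand. For long non-coding records that stood alone that share was 16.9% (217 of 1285). Within 5000 bases the shares were 35.5% for the clustered loci and 38.1% for records that stood alone. Within 1000 bases of a gene the median sum was 15.4 FPKM, against 5.01 FPKM for the rest. Records that stood alone were also higher near a gene, with medians of 5.73 and 0.510 FPKM, so this contrast is not particular to clustered loci. By side, the medians were 19.5 FPKM for the 73 loci downstream on the same strand and 10.7 for the 8 downstream on the other strand, but 3.82 for the 9 upstream on the other strand and 1.26 for the 2 upstream on the same strand. For the 71 measured loci downstream on the same strand and within 1000 bases, the level of the locus followed that of the gene, with a Pearson's r of 0.811 across loci on the log2 scale, and 57 of them stood above the gene. For the 116 measured loci over 5000 bases away, on any side or strand, r was 0.0972, and 80 of them stood above the nearest gene. In both counts the locus value is a sum over its records, while that of the gene is a single record. These points share libraries and are no independent replicates, so r is a description.

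The strain ratios of locus and gene were also set side by side. Across the same 71 loci, r between the log2 ratio of the locus and that of the gene was 0.372 for Dahl S against Dahl R, 0.568 for Dahl S against SHR and 0.643 for SHR against Dahl R. Over 5000 bases away the values were -0.0911, -0.0451 and 0.0803. The sets also differed in level, with a median gene value of 13.0 FPKM for the 71 loci and 2.11 FPKM for the 116 far ones. Median locus sums were 20.3 and 6.93 FPKM. The part of level, side and strand in these values of r was not tested. The locus led by FQ222321 begins 410 bases past *Actb*, the gene of cytoplasmic beta-actin, on the same strand. Its sum was 1566 FPKM for Dahl S, 1369.9 for Dahl R and 1205 for SHR, beside 865 (519–1212) for Dahl S, 913 (536–1290.2) for Dahl R and 799 (437–1160.4) for SHR for *Actb*. The locus led by FQ219568, 1421 bases past *Gclm*, a subunit of the enzyme that makes the glutathione precursor, had 526 FPKM for Dahl S, 595 for Dahl R and 489 for SHR beside 602 (382–822) for Dahl S, 739 (443–1034) for Dahl R and 563 (337–789) for SHR. Neither sum was 2-fold apart in a pair of strains.

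The 3 strains were compared in pairs, and any such pair has 1 library in common with each of the others. A record was counted as 2-fold apart when the log2 ratio of FPKM + 1 was at least 1 in size, among records whose mean reached 0.5 FPKM. With 1 library per strain there is no test and no p-value. In Dahl S against Dahl R, 53 of the 670 records were higher in Dahl S (background over all records 3.08%) and 36 were lower (background 2.26%), 13.3% in all. The limits did not overlap for 66 of these (background 1.76%). In Dahl S against SHR, 47 were higher in Dahl S (background 3.38%), 37 lower (background 2.84%) and 71 had limits apart (background 2.66%). In SHR against Dahl R, 46 were higher in SHR (background 2.93%), 35 lower (background 2.26%) and 76 had limits apart (background 2.48%). The 89, 84 and 81 records 2-fold apart lay at 49, 40 and 38 loci, so they are not independent units. At 10, 8 and 8 of these loci some records were higher and others lower. With a pseudocount of 5 in place of 1 the counts of records were 32, 38 and 30, and with 0.1 they were 144 and 137 in the first 2 pairs. Medians of all 670 log2 ratios stayed near 0, at 0.09, 0.06 and 0.04, beside 0.05, 0.01 and 0.03 for all records tested.

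Sums per locus were 2-fold apart far less often. In Dahl S against Dahl R, 6 of the 294 measured sums were higher (background over all locus sums 2.15%) and 3 lower (background 1.35%), or 3.06% in all. In Dahl S against SHR, 3 were higher (background 2.49%) and 3 lower (background 1.69%), and in SHR against Dahl R, 3 were higher (background 1.82%) and 4 lower (background 1.52%). With a pseudocount of 0.1 the sums 2-fold apart numbered 20, 22 and 21 in the 3 pairs, and with one of 5 they numbered 1, 2 and 3, at the loci of FQ218312, U70268, XR_086281 and XR_006738_3. With a pseudocount of 1 these shares lie near the background, while those of single records stand above it. Of the records 2-fold apart, only 8 of 89, 8 of 84 and 10 of 81 lay at a locus whose sum was also 2-fold apart. Their median log2 ratio in size was 1.42, 1.73 and 1.57, against 0.30, 0.47 and 0.27 for the sums of their loci.

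**Figure D1:**
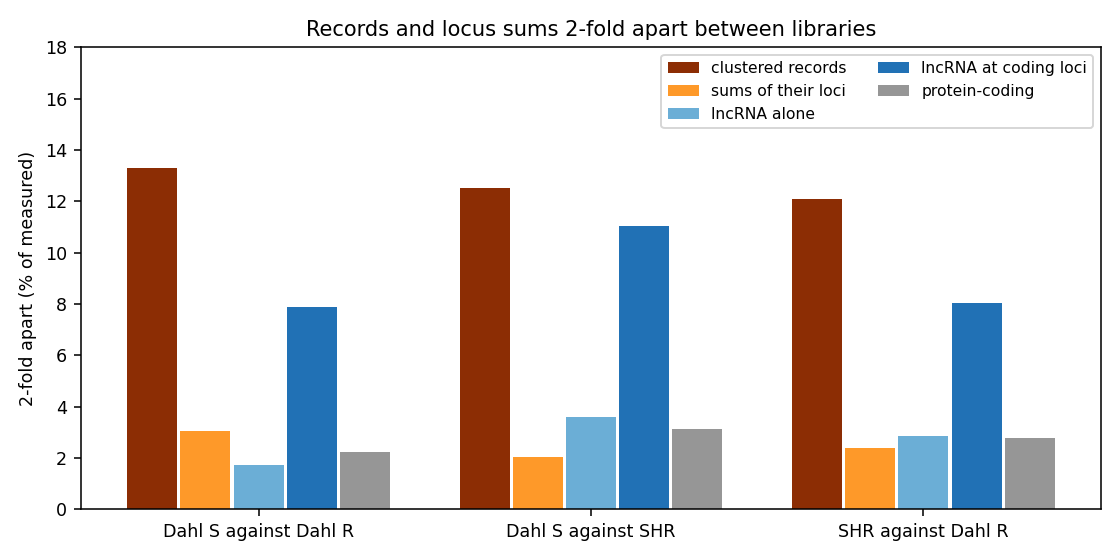
Share of measured records or locus sums that were 2-fold apart, in percent, for the 3 pairs of libraries, by class of record. The clustered records stand at 13.3%, 12.5% and 12.1%, and the sums of their loci at 3.06%, 2.04% and 2.38%.

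Other classes gave a scale for these shares. Long non-coding records that stood alone were 2-fold apart in 1.73%, 3.59% and 2.85% of cases, and protein-coding records in 2.21%, 3.14% and 2.77%. Long non-coding records at coding loci, which share their loci too, reached 7.89%, 11.02% and 8.03%. Records of the remaining biotypes, among them pseudogenes and small RNAs, reached 23.6%, 23.5% and 18.8%, but their limits were apart in only 1.58%, 2.07% and 1.87%. Among the clustered records the share rose with the crowding of the locus, except from 1 to 2 records in Dahl S against Dahl R. With 1 such record at a locus (41 measured) 7.32%, 2.44% and 2.44% were 2-fold apart. With 2 it was 7.33%, 4.67% and 5%, with 3 to 4 it was 12.6%, 10.9% and 10.9%, and with at least 5 it was 27.3%, 32.5% and 29.9%.

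**Figure D2:**
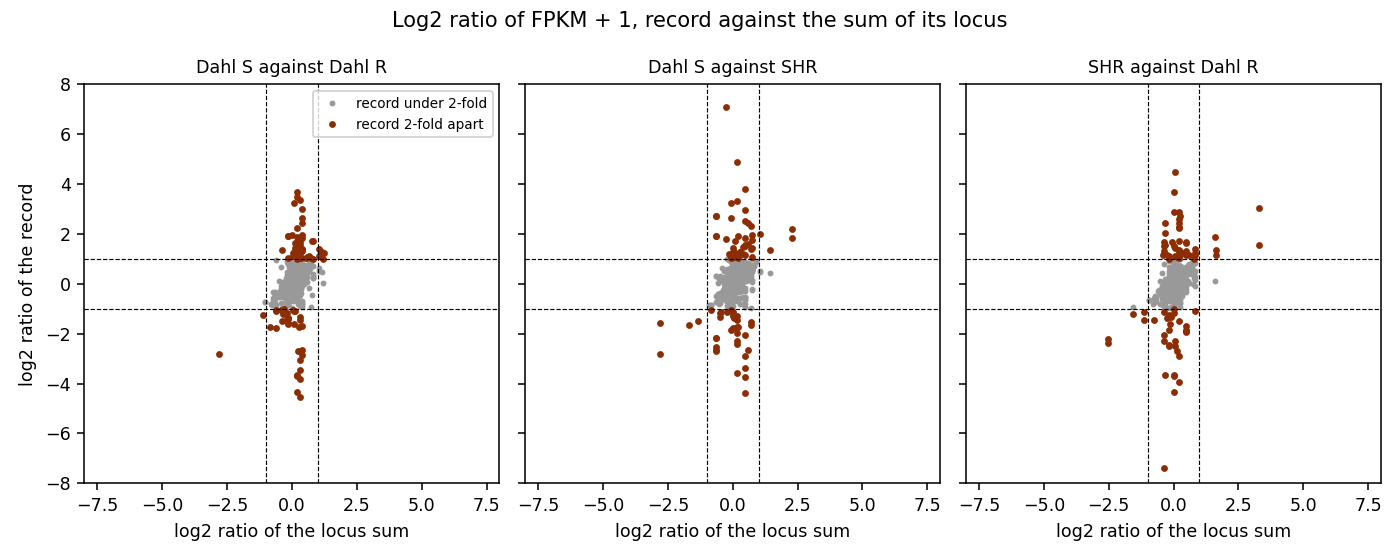
Log2 ratio of FPKM + 1 of each measured record (y axis) against that of the sum of its locus (x axis), 1 panel per pair of libraries, with dashed lines at a log2 ratio of 1 in either direction. Records 2-fold apart form a vertical band, most of them at loci whose sum lies between the dashed lines.

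Within a locus, several records shared the signal. The most abundant record held a median of 61.4% of the locus sum for Dahl S, 63.7% for Dahl R and 63.5% for SHR, against 83.8%, 85.6% and 85.5% at other loci with several records. The share of a locus sum that moved from some of its records to others between a pair of libraries had medians of 6.71%, 7.23% and 6.65%, against 3.83%, 4.42% and 3.69% elsewhere. Large shifts were about as frequent in either set. More than 25% of the sum moved at 8.57%, 10.3% and 7.98% of the loci, against 9.25%, 9.42% and 8.09% elsewhere. The same record was on top in all 3 libraries at 179 of 253 loci (70.8%), against 2265 of 2682 (84.5%). In all these comparisons only long non-coding records were counted at the clustered loci, but records of every biotype elsewhere. The number of records per locus was not matched. Cufflinks divides fragments among overlapping transcripts by a statistical model, and its part in these shifts was not tested.

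On chromosome 14, positions 85353762 to 85353942, 6 records of the minus strand had a nearly constant sum, 542 FPKM for Dahl S, 547 for Dahl R and 572 for SHR. FQ217035 was listed at 75.4 (46.2–105) for Dahl S, 150.0 (101–199) for Dahl R and 277 (195–359) for SHR. It was lowest in Dahl S and highest in SHR, with limits apart between them and a log2 ratio of Dahl S to SHR of -1.86. FQ224687 ran the other way, at 136 (86.96–185) for Dahl S, 80.7 (50.1–111) for Dahl R and 13.6 (6.06–21.1) for SHR, with a log2 ratio of Dahl S to SHR of 3.23. FQ216944 did so too, at 86.01 (53.4–119) for Dahl S, 66.8 (41.4–92.1) for Dahl R and 13.00 (6.06–19.9) for SHR. Of the sum, 51.8% moved between records from Dahl S to SHR, while the log2 ratio of the sum itself was -0.08.

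Another locus lay on chromosome 16_random, positions 1045448 to 1046575, with 21 records that all reached the minimum. Its sum was 588 FPKM for Dahl S, 478 for Dahl R and 424 for SHR. FQ231953 stood apart in Dahl S, at 129 (92.1–167) for Dahl S, 11.7 (7.31–16.04) for Dahl R and 15.7 (10.4–21.01) for SHR. FQ231072, FQ225900 and FQ210078 were listed at 0 in Dahl S, and at 22.4, 10.1 and 5.54 FPKM in Dahl R. In Dahl S against Dahl R, 5 of the 21 records were higher and 7 lower, and 44.6% of the sum moved. Among the 7 was FQ218242, at 5.08 (0–192) for Dahl S, 83.7 (59.5–108) for Dahl R and 61.4 (43.6–79.1) for SHR. It held 0.863% of the sum in Dahl S and 17.5% in Dahl R. Its Dahl S limits span those of both other libraries, so its part in the share that moved is uncertain.

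On unplaced sequence, a locus of 16 records led by FQ222579 summed to 297 FPKM for Dahl S, 228 for Dahl R and 264 for SHR. FQ222579 itself was at 115 (81.2–149.6) for Dahl S, 59.7 (41.3–78.1) for Dahl R and 2.95 (1.32–4.59) for SHR, lowest in SHR with limits apart from both others. FQ218164 was also lowest in SHR, at 101 (70.7–131) for Dahl S, 27.8 (18.2–37.5) for Dahl R and 9.24 (5.41–13.1) for SHR. FQ218239 was highest there, at 1.37 (0.142–2.61) for Dahl S, 2.77 (1.08–4.46) for Dahl R and 27.1 (17.95–36.3) for SHR. From Dahl S to SHR 68.5% of the sum moved between records, at a log2 ratio of the sum of 0.17.

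At the locus of FQ212892, on chromosome 2_random with 9 records and a sum of 79.1 FPKM for Dahl S, 68.5 for Dahl R and 68.5 for SHR, it was Dahl R that stood apart. FQ212892 was listed at 25.7 (17.4–33.97) for Dahl S, 1.10 (0.411–1.79) for Dahl R and 25.7 (17.96–33.4) for SHR. FQ214207 was at 28.3 (19.3–37.3) for Dahl S, 1.62 (0.718–2.52) for Dahl R and 18.4 (12.6–24.2) for SHR, so that both were lowest in Dahl R with limits apart. FQ212980, FQ212889 and FQ213912 were listed at 0 in both Dahl S and SHR, but at 19.2, 11.9 and 11.5 FPKM in Dahl R. Between Dahl S and SHR 12.7% of the sum moved, with 1 record higher and 1 lower, against 64.3% between Dahl S and Dahl R and 67.2% between SHR and Dahl R.

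**Figure D3:**
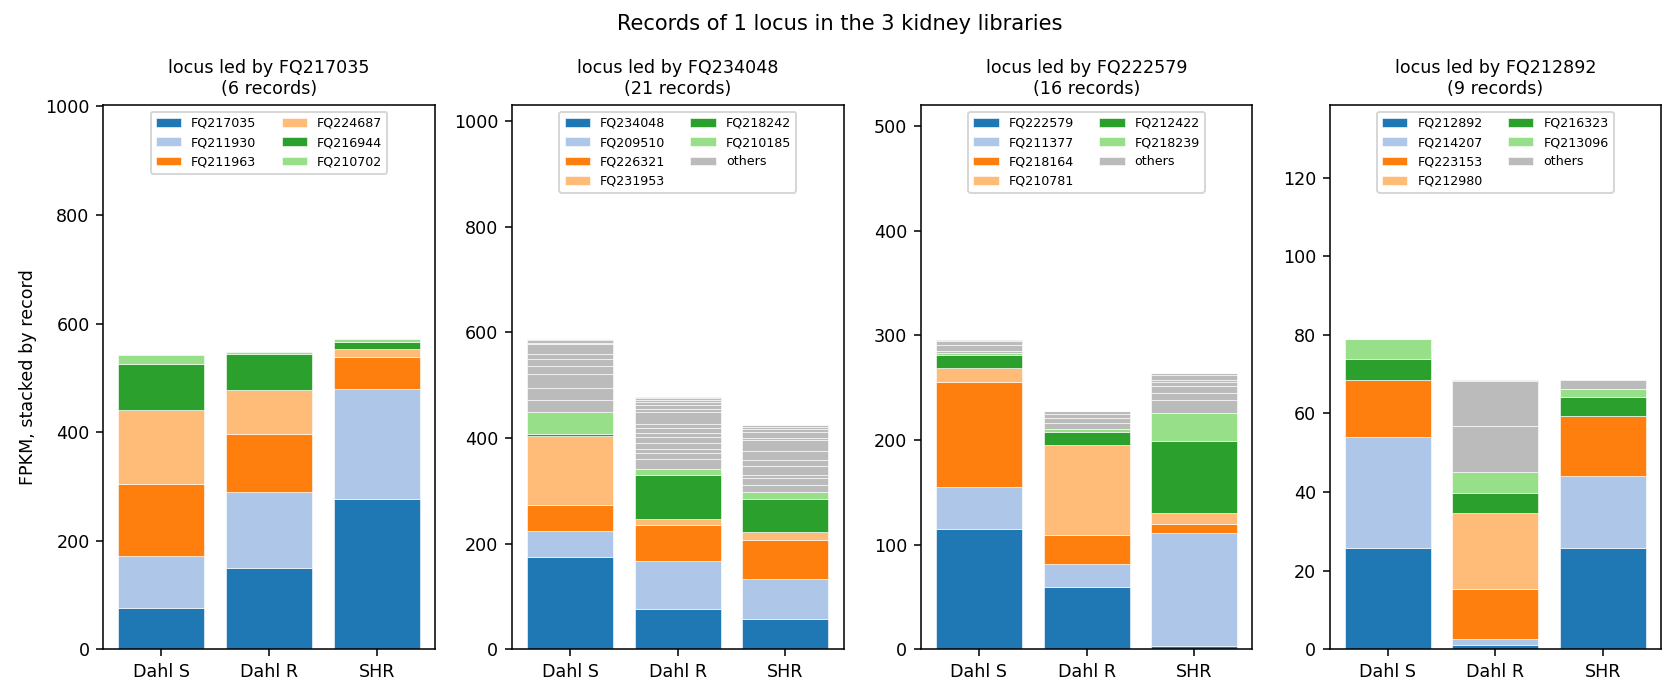
FPKM of single records stacked by library at 4 loci, with the 6 most abundant records in colour and the rest in grey. The height of the stack changes little between libraries at the FQ217035 locus (542, 547 and 572 FPKM), while its coloured parts change.

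At other loci some records moved apart from the rest of their locus. FQ211801 of the FQ224152 locus was listed at 134 (88.9–179.6) for Dahl S, 168 (115–221) for Dahl R and 0 (0–0) for SHR. FQ226149 of that locus was also lowest in SHR, at 132 (86.9–177) for Dahl S, 187 (129–245) for Dahl R and 37.4 (22.4–52.3) for SHR, with limits apart from both Dahl libraries. The lead records there were FQ224152 and FQ228631. FQ224152 had 548 for Dahl S, 935 for Dahl R and 788 for SHR, and FQ228631 had 443 for Dahl S, 677 for Dahl R and 699 for SHR, both lowest in Dahl S. Next to *Actb*, FQ212279 was highest in Dahl S, at 493 (349.8–636) for Dahl S, 135 (91.3–179) for Dahl R and 215 (152–279) for SHR, a log2 ratio to Dahl R of 1.86. FQ222321 of that locus was at 1073 for Dahl S, 1235 for Dahl R and 989 for SHR, with overlapping limits. At the BC157821 locus on chromosome 7, with 17 records of which 10 were listed at 0 throughout, FQ224594 was lowest in Dahl R, at 219.6 (156–283) for Dahl S, 89.9 (62.5–117) for Dahl R and 248 (176–321) for SHR. BC157821 was highest there, at 413 (293–533) for Dahl S, 511 (357–665) for Dahl R and 359.7 (253–467) for SHR, with limits that overlap those of the other libraries. At a locus on chromosome 2, XR_006759_6 was at 3.89 (2.29–5.50) for Dahl S, 14.9 (10.3–19.5) for Dahl R and 0.261 (0.0557–0.466) for SHR, highest in Dahl R. XR_085946_6 was at 7.04 (4.46–9.61) for Dahl S, 0 (0–0) for Dahl R and 4.43 (2.83–6.04) for SHR. XR_086368_6 was at 7.17 (4.56–9.78) for Dahl S, 0.299 (0.0559–0.541) for Dahl R and 4.33 (2.76–5.89) for SHR. These 3 are numbered copies of accessions listed at several loci, and the last pair was lowest in Dahl R, where the first was highest. The locus with the most records, 24 led by FQ221888, did not reach the minimum in any record.

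Across the 3 pairs 15 different loci had sums 2-fold apart, 6 of them in at least 2 pairs, and 7 had a mean sum of at least 5 FPKM. The largest sum among them belonged to FQ218312 and FQ226553 on chromosome 17, positions 48500606 to 48501088, at 164 FPKM for Dahl S, 96.8 for Dahl R and 295 for SHR, highest in SHR and lowest in Dahl R, with a log2 ratio between them of 1.60. FQ218312 was at 152 (107–196) for Dahl S, 73.4 (50.9–95.9) for Dahl R and 270.3 (191–350.1) for SHR, with the limits of Dahl R apart from those of both others. The coding record LOC684681, 946 bases upstream on the same strand, was in the same order, at 47.1 (29.6–64.5) for Dahl S, 20.6 (11.98–29.1) for Dahl R and 73.5 (50.3–96.7) for SHR.

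**Figure D4:**
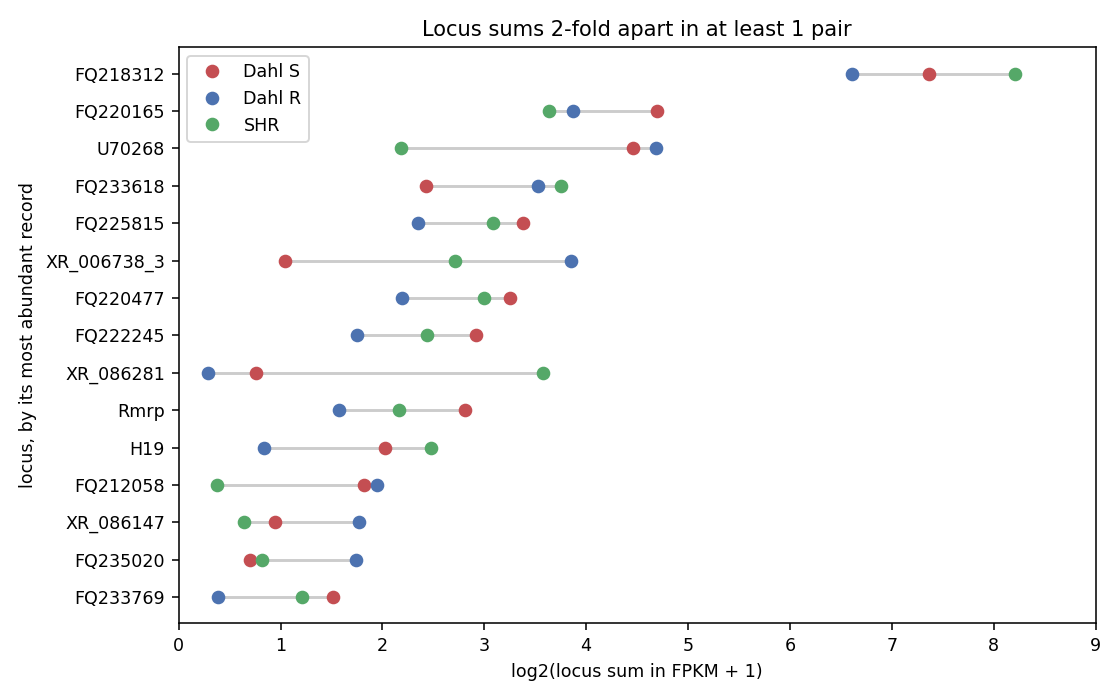
Locus sums that were 2-fold apart in at least 1 pair, as log2(FPKM + 1) per library, 1 row per locus named by its most abundant record. The U70268 row shows SHR far to the left of both Dahl libraries, and the XR_086281 row shows SHR far to the right.

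The locus of U70268 and U70267 on chromosome 8, positions 68925711 to 68926073, was low in SHR. Its sum was 20.99 FPKM for Dahl S, 24.8 for Dahl R and 3.53 for SHR, a log2 ratio of 2.28 for Dahl S against SHR and -2.51 for SHR against Dahl R. U70268 was at 13.9 (6.08–21.7) for Dahl S, 13.9 (6.70–21.2) for Dahl R and 2.25 (0.150–4.35) for SHR, with the limits of SHR apart from both Dahl libraries. U70267 was at 7.11 (2.10–12.1) for Dahl S, 10.8 (4.71–16.99) for Dahl R and 1.28 (0–2.92) for SHR, also lowest in SHR, where its limits overlap those of Dahl S. The nearest coding gene, *Megf11*, which encodes a transmembrane protein with EGF-like repeats, ends 2018 bases away on the other strand. It was low in SHR as well, at 22.1 (17.98–26.1) for Dahl S, 33.4 (27.6–39.2) for Dahl R and 4.20 (3.23–5.17) for SHR. Sum and gene thus had the same order of strains, and the limits of *Megf11* in SHR were apart from those of both Dahl libraries.

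High in SHR was the locus of XR_086281 on chromosome 6, positions 134099270 to 134149525, with 3 long non-coding records and 2 microRNAs, among them rno-mir-770, whose hairpin is shown above. The sum was 0.696 FPKM for Dahl S, 0.218 for Dahl R and 10.9 for SHR, with log2 ratios of 3.29 for SHR against Dahl R and -2.82 for Dahl S against SHR. XR_086281 was at 0.296 (0–0.735) for Dahl S, 0.0877 (0–0.212) for Dahl R and 8.06 (5.01–11.1) for SHR, with the limits of SHR apart from both others. XR_008690 was at 0.399 (0–0.869) for Dahl S, 0.130 (0–0.315) for Dahl R and 0.898 (0.322–1.47) for SHR. FQ212244, of the other strand, was at 0 (0–0) for Dahl S, 0 (0–0) for Dahl R and 1.97 (0.790–3.16) for SHR. All 3 were highest in SHR, but as records of 1 locus in 1 library they are no replicates. XR_008690 was under the minimum mean, and its SHR limits overlap those of Dahl S. XR_086281 and FQ212244 reached the minimum through SHR alone. The nearest coding gene, *Dlk1*, an imprinted gene for a Notch-like ligand, lies 70194 bases away. It was at 0.666 (0–1.35) for Dahl S, 0.534 (0.0749–0.994) for Dahl R and 0.749 (0.244–1.25) for SHR, within 2-fold in every pair and with overlapping limits. The record rno-mir-770 was at 2.67 (0–7.38) for Dahl S, 0 (0–0) for Dahl R and 0 (0–0) for SHR, and the other microRNA record, ENSRNOG00000041744, was listed at 0 in both Dahl libraries and at 4.41 (0–9.94) in SHR. These point in opposite directions, at levels where the limits reach 0. The brown fat markers *Ucp1* and *Cidea* were also highest in SHR, with *Cidea* at 14.4, 8.58 and 44.5 FPKM, and their part in this result was not tested.

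The *H19* locus on chromosome 1, positions 202822924 to 202825601, held *H19*, a growth-related RNA that is abundant before birth, 3 further long non-coding records, a microRNA record and a pseudogene record named *Mir675*. Its sum was low in every strain, at 3.06 FPKM for Dahl S, 0.784 for Dahl R and 4.55 for SHR. *H19* itself was at 0.655 (0.227–1.08) for Dahl S, 0.603 (0.235–0.971) for Dahl R and 2.58 (1.57–3.58) for SHR, highest in SHR, where its limits were apart from both others. FQ223682, at 1.40 (0–2.85) for Dahl S, 0 (0–0) for Dahl R and 0 (0–0) for SHR, and FQ223810, at 1.001 (0–2.43) for Dahl S, 0 (0–0) for Dahl R and 1.59 (0.211–2.98) for SHR, made up most of the Dahl S sum. The record rno-mir-675 was listed at 0 in both Dahl libraries and at 1.57 (0–4.60) in SHR, and *Mir675* was at 0.834 (0–1.90) for Dahl S, 0.509 (0–1.23) for Dahl R and 1.34 (0.309–2.38) for SHR. The nearest coding gene, on the other strand, was *Mrpl23*, for a protein of the mitochondrial ribosome, at 38.4 for Dahl S, 33.3 for Dahl R and 38.5 for SHR.

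Of the other sums 2-fold apart, none was as high as that of FQ218312. XR_006738_3 on the X chromosome was at 1.06 (0.417–1.71) for Dahl S, 13.4 (9.13–17.8) for Dahl R and 5.55 (3.56–7.55) for SHR, with all 3 libraries apart. FQ233618 on chromosome 6 was lowest in Dahl S, at 3.70 (0.802–6.60) for Dahl S, 10.3 (4.93–15.6) for Dahl R and 12.2 (6.52–17.8) for SHR. The locus led by FQ220165 lies 1214 bases past *Klf6*, a zinc finger transcription factor, and summed to 24.9 FPKM for Dahl S, 13.6 for Dahl R and 11.4 for SHR, beside 11.6 (7.62–15.6) for Dahl S, 10.6 (7.09–14.2) for Dahl R and 7.86 (5.21–10.5) for SHR for *Klf6*. The Dahl S excess lay mostly in FQ221891, at 10.2 (3.35–17.01) for Dahl S, 2.41 (0–5.23) for Dahl R and 1.81 (0–4.04) for SHR. FQ212058 with XR_085710 near *Zfp94* was low in SHR, with a sum of 2.53 FPKM for Dahl S, 2.86 for Dahl R and 0.302 for SHR. XR_086147 with AB072254_1, next to the class I histocompatibility gene *RT1-CE10*, summed to 0.924 FPKM for Dahl S, 2.42 for Dahl R and 0.558 for SHR, and *RT1-CE10*, of a family of near-identical genes and so uncertain, was at 65.5 (46.8–84.2) for Dahl S, 59.5 (42.6–76.5) for Dahl R and 22.1 (16.4–27.9) for SHR. The remaining loci, led by FQ225815, FQ220477, FQ222245, FQ235020 and FQ233769, differed only in Dahl S against Dahl R, with log2 ratios of 1.02, 1.06, 1.17, -1.04 and 1.13. At the FQ233769 locus the other record, a microRNA of the other strand, ran the other way. It was at 0 (0–0) for Dahl S, 13.5 (3.13–23.97) for Dahl R and 8.07 (0.960–15.2) for SHR. F1LZA3_RAT, the coding record 449 bases from the FQ222245 locus, was lowest in Dahl S, where that sum was highest. It was at 0.128 (0.0926–0.163) for Dahl S, 1.34 (0.463–2.21) for Dahl R and 0.701 (0.165–1.24) for SHR.

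Among the hosts and enzyme RNAs, *Gas5* was within 2-fold in every pair, with overlapping limits. It lay on chromosome 13, positions 76594780 to 76598102, and was at 9.78 (5.10–14.5) for Dahl S, 11.1 (6.29–15.8) for Dahl R and 9.86 (5.71–14.01) for SHR. The 9 snoRNA records of its locus ranged from 0 to 940 FPKM in Dahl S, from 0 to 768 in Dahl R and from 7.46 to 587 in SHR. SNORD77, the highest in both Dahl libraries, was at 939.9 (651–1229) for Dahl S, 768 (535–1001) for Dahl R and 549 (379.9–719) for SHR. SNORD74, the highest in SHR, was at 775 (535–1016) for Dahl S, 715 (499–931) for Dahl R and 587 (410.3–765) for SHR. Both SNORD77 and SNORD74, snoRNAs of the C/D box class, which guide methylation, had their lowest value in SHR, but not all 9 records did. SNORD47 was at 593 (399–786) for Dahl S, 612 (421–803) for Dahl R and 515 (355–675) for SHR. SNORD24 was at 402 (263–541) for Dahl S, 406 (272–540.1) for Dahl R and 408 (279–537) for SHR. These 4 stood far above the host on the FPKM scale, which divides by a transcript length that the files do not give. All 9 had overlapping limits between strains, and 1 (SNORD78, listed at 0 in both Dahl libraries) was 2-fold apart in 2 pairs.

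**Figure D5:**
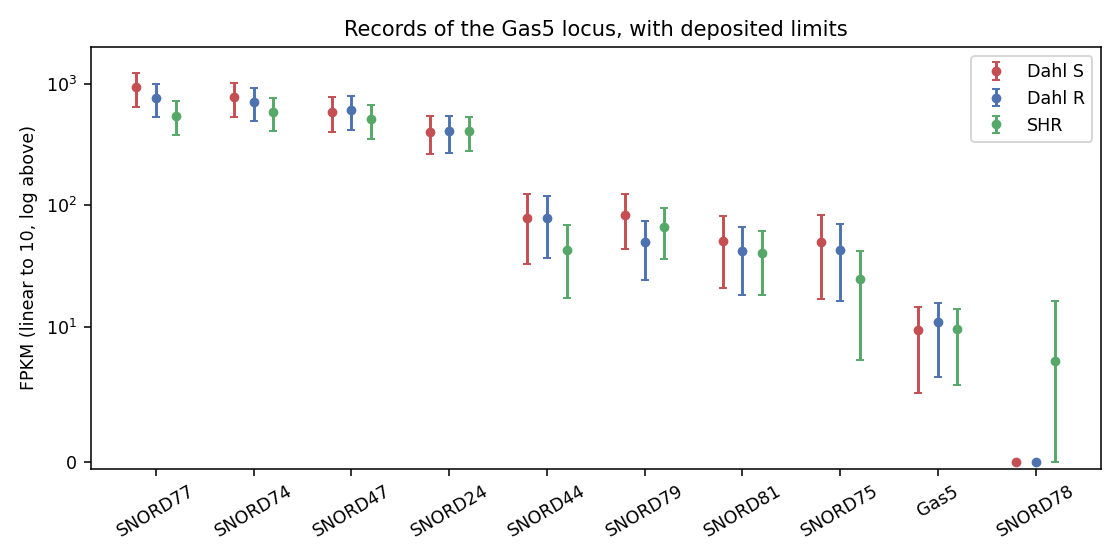
FPKM of *Gas5* and of the 9 snoRNA records at its locus in the 3 libraries, with the deposited limits as bars, on an axis that is linear to 10 and logarithmic above. The limits of the 3 libraries overlap for every record, and *Gas5* (9.78, 11.1 and 9.86 FPKM) lies below 8 of the 9 snoRNAs.

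*Rmrp* on chromosome 15 was listed at 6.002 (1.997–10.01) for Dahl S, 1.98 (0.0891–3.86) for Dahl R and 3.48 (1.17–5.80) for SHR. Its sum was 2-fold apart in Dahl S against Dahl R with overlapping limits, and the record RNaseP_nuc at the same locus was at 208 (146–269.6) for Dahl S, 239 (170.1–309) for Dahl R and 283 (201–365) for SHR. The 2 names stand for different enzymes, RNase MRP and RNase P, and RefSeq gives *Rmrp* as a synonym of *Rpph1*, the usual symbol of the RNase P RNA, so which RNA the locus measures is uncertain. *Terc*, the telomerase template, was under the minimum in all libraries, at 0.382 (0–0.923) for Dahl S, 0.430 (0–0.926) for Dahl R and 0.358 (0–0.771) for SHR. XR_085709_2, at a locus with a record named 7SK, was listed at 0 throughout.

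At each of the 5 loci of highest sum that also held another biotype, that record was a pseudogene and stood below the sum of the long non-coding records. XR_007294 and 2 further records on chromosome 9 summed to 158 FPKM for Dahl S, 159 for Dahl R and 119 for SHR, above the pseudogene Eif4g2-ps1 at 22.9 (16.1–29.6) for Dahl S, 23.04 (16.4–29.7) for Dahl R and 14.7 (10.4–19.02) for SHR. FQ222206 and XR_085604 on chromosome 13 summed to 148 FPKM for Dahl S, 130.0 for Dahl R and 129.5 for SHR, and LOC100364777 was at 4.58 for Dahl S, 6.90 for Dahl R and 9.86 for SHR. XR_086003 was at 89.2 (63.4–115) for Dahl S, 95.5 (67.4–124) for Dahl R and 81.1 (57.1–105) for SHR beside LOC679963 at 16.8 (11.2–22.4) for Dahl S, 11.1 (7.34–14.9) for Dahl R and 8.76 (5.78–11.7) for SHR. None of these sums was 2-fold apart in a pair, nor were those of FQ210856 (66.6 FPKM for Dahl S, 71.8 for Dahl R and 78.7 for SHR) and XR_086082_1 (58.5 FPKM for Dahl S, 61.9 for Dahl R and 51.9 for SHR).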

How the data were processed

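RNA depleted of ribosomal RNA had been sequenced from 3 rat kidney libraries, 1 per strain. Per the submitters' processing notes, the authors used Cufflinks 1.0.3 and TopHat 1.3.1, and the deposited unit is FPKM with a lower and an upper limit. Not given in the sources used here are the genome build, annotation, use of strand, read totals and confidence level. Positions are those of the files, with 1 added to starts counted from 0. Member values were summed per locus string. Ratios are log2 of FPKM plus a pseudocount of 1, which understates changes of low records. A difference counted at a log2 ratio of at least 1, with a mean of at least 0.5 FPKM. Libraries without replicates allow no test or spread. Members, lists and alternatives were chosen with earlier results of these data known. Names were drawn from the 10 loci of highest sum, the 6 most extreme records and up to 4 locus sums per pair and direction, the 3 most crowded loci, the 5 highest loci with another biotype, up to 4 loci moving both ways, known long non-coding names and their nearest coding records. Not all of these are described. Among those left out are the loci led by FQ210728 (18 records), XR_086350 and FQ234173_3, and the records FQ217332, FQ210881, FQ219444, FQ212974 and FQ224797. XR_085946_6 and other records given beside these belong to the same loci. FQ212279, FQ224594, FQ225815, FQ220477 and the promoter motifs were picked after their values or letters were seen. Other pseudocounts, minimum means, scalings and subsets of loci were tried. The size rule was tried on simulated data, with large changes set in records of at least 5 FPKM. That trial covered neither lower records nor the spread between animals, so it says nothing on either. RefSeq tables (assembly GRCr8) gave sequences and names only. Analyses used Python 3.11.15, numpy 2.4.6, pandas 2.3.3 and matplotlib 3.10.9. No genome was used here.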

Additional observations from a re-analysis of the deposited data

How the results depend on the processing

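No paired analysis was possible because each strain has 1 library, and no library could be left out. For Dahl S against Dahl R, Dahl S against SHR and SHR against Dahl R, the 89, 84 and 81 records 2-fold apart became 32, 38 and 30 with a pseudocount of 5, and 36, 41 and 38 with a minimum mean of 5 FPKM. With a pseudocount of 0.1 they became 144 and 137 in the first 2 pairs. The 9, 6 and 7 locus sums became 20, 22 and 21 with a pseudocount of 0.1, and 1, 2 and 3 with one of 5. With a minimum mean of 5 FPKM the sums were 4 for Dahl S against Dahl R and 3 for SHR against Dahl R. Added after the data were seen, leaving out loci of at least 5 long non-coding records gave 47, 34 and 35 records, and leaving out unplaced or random sequence gave 52 for SHR against Dahl R. All other counts under the alternatives run, 3 scalings among them, stayed within 1.5 times. The scalings moved the median of all records by at most 0.0563 on the log2 scale. Requiring limits apart could not be applied to sums, which have no limits. No clustered locus overlapped a coding locus by position, so leaving such loci out changed nothing. With a minimum of 1 FPKM, 55.7% of records were measured. The median share of the top record in Dahl S was 61.6% without loci holding small RNA. Without mitochondrial records in the total, the class held 3.33%, 3.24% and 3.29% of all FPKM, and without the locus of XR_086349, also added later, 1.73%, 1.70% and 1.60%. Of 56 single ratios of named records and sums, none changed direction. A pseudocount of 5 took 14 under 2-fold, and scaling to totals without mitochondrial and short loci took 1.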
